A study of Arabidopsis thaliana with 36 samples.

Results

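The genotype by tissue interaction is the difference between what loss of OPT3 function did in shoots and what it did in roots of the same kind of plant. It was computed from all 36 columns of the deposited count table, which are 36 of the 36 columns in the series. Technical columns were summed to 12 libraries, 3 in each of 4 groups. The groups were leaves of wild type Arabidopsis thaliana (Col-0), leaves of the mutant opt3-2, roots of the wild type and roots of opt3-2. All groups had been exposed to cadmium: plants grown for 11 d on plates and 22 d in hydroponic medium (a daily cycle of 16 h light, 8 h dark) received 20 µM CdCl2 for 72 h. Untreated plants were not analysed here, so none of the values separates the response to cadmium from a difference that was there before. Each sample was RNA of 3 to 4 pooled plants, opt3-2 is the only mutant allele, and the labels call the replicates biological without stating separate batches, so p-values measure the spread between these samples.

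OPT3 encodes an oligopeptide transporter family protein that loads iron into the phloem, the tissue that carries sugars and signals from leaves to roots. Plants that lack its full activity accumulate iron in leaves and yet switch on iron acquisition in roots, and they are known to over-accumulate cadmium. A genotype by tissue interaction asks, gene by gene, whether leaves and roots of the mutant differ in their RNA response.

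Total counts per library ran from 21262406 to 36484138. OPT3 itself checked the labels. It stood at 389, 321 and 352 CPM, that is counts per 1e6 of the TMM-scaled library size, in the 3 wild type shoot libraries and at 23.4, 17.6 and 24.1 in opt3-2 shoots. In roots it stood at 38.4, 47.9 and 41.4 in the wild type and at 9.02, 4.55 and 4.13 in opt3-2. The mutant libraries were below the wild type in both tissues without overlap. The fall was 16.3-fold in shoots and 7.27-fold in roots, and the interaction was -1.16 ± 0.33 on the log2 scale (SE, n = 3 per group; edgeR quasi-likelihood test, adjusted p = 0.0144). That call was not kept with the wild type libraries of only one set of column suffixes (adjusted p = 0.0951 and 0.0885). The technical columns of every opt3-2 library carry the suffixes 1 to 3 and those of no wild type library do: wild type shoot replicates 1 and 2 and wild type root replicate 3 carry 2 to 4, and the other wild type libraries 5 to 7. What the suffixes stand for is not stated in the labels, and suffix and genotype cannot be told apart.

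In the text that follows, the mutant effect of a gene is its log2 ratio of opt3-2 to wild type in one tissue, and the interaction is the effect in shoots minus the effect in roots. A positive interaction means that the gene stood higher in the mutant, relative to the wild type, in shoots than in roots. A gene was called where the Benjamini-Hochberg adjusted p of edgeR's quasi-likelihood test was below 0.05. In bulk RNA, fewer cells of a type and less RNA per cell cannot be told apart.

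The mutant effect differed between shoots and roots for 10542 of 21887 genes tested, 48.2% of them. The shoot effect was above the root effect for 5249 genes (24% of those tested) and below it for 5293 (24.2%). These shares are the background for the list counts below. The median interaction over all genes was -0.00, which TMM scaling centres near 0 and which therefore does not bear on a shift of a whole tissue. With library sizes alone the median was -0.08 and 42.2% of the calls were positive. Large differences leaned one way: 2354 called genes had an interaction of -1 or lower on the log2 scale, against 1264 at 1 or higher. Of the 17437 genes with at least 1 CPM in a genotype of each tissue, 9632 were called, so most calls came from genes measured in both organs. The genotypes' libraries did not overlap in either tissue for 5122 of the called genes, 23.4% of those tested.

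Opposite effects were more common than shared ones. Among 4267 genes whose mutant effect was called in shoots and in roots, 3206 moved in opposite directions, which is 33.3% of all genes called in shoots and 37.6% of those called in roots. The same direction was found for 1061 genes, 11% and 12.4% of these totals. Of the opposed genes, 1764 were higher in opt3-2 shoots and lower in opt3-2 roots (8.06% of genes tested), and 1442 were lower in shoots and higher in roots (6.59%). The reversals were unequal in size. Both effects reached 2-fold for 228 reversed genes, and 187 of these were lower in shoots and higher in roots while 41 were higher in shoots and lower in roots. For comparison, 105 genes changed at least 2-fold in the same direction in both tissues, 87 upward and 18 downward. Across all genes tested, the shoot and root effects had a Pearson correlation of -0.19 and a Spearman correlation of -0.26, given as a description since genes share libraries.

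The rest of the called genes differed in extent. The shoot effect alone was called for 3800 genes with an interaction (36% of the called), and the root effect alone for 2662 (25.3%). A further 264 genes moved the same way in both tissues by different amounts (2.5%), and 610 were called for the interaction with neither tissue effect called by itself (5.79%).

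**Figure D1:**
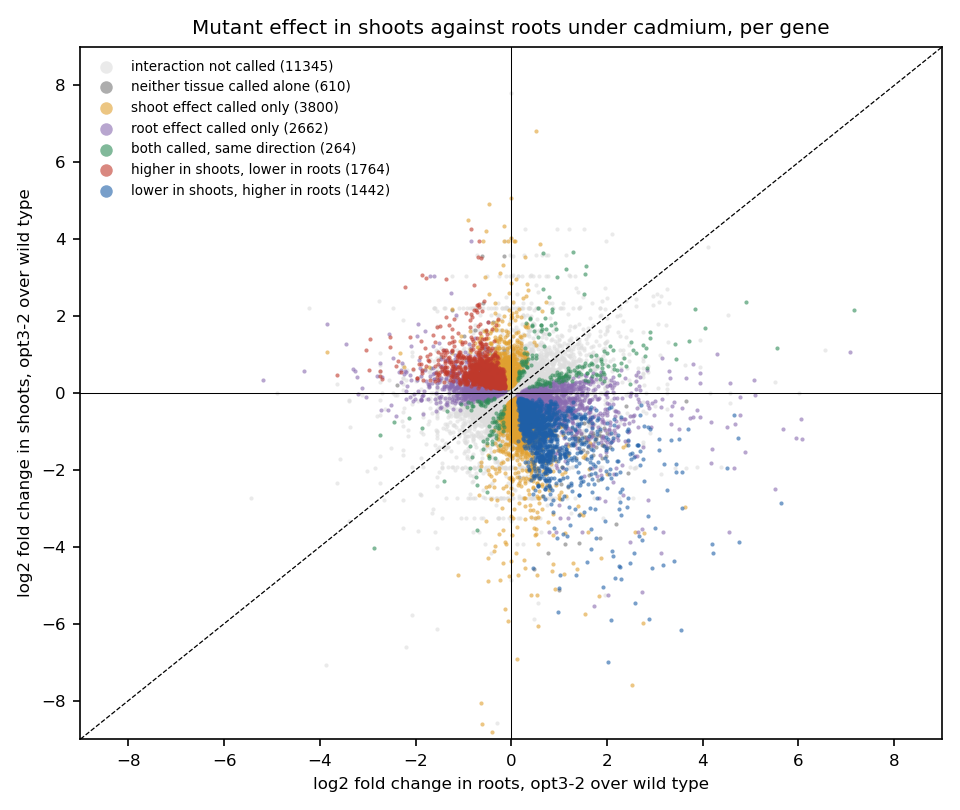
Each point is 1 of the 21887 genes tested, with its log2 fold change of opt3-2 over wild type in roots (horizontal) and in shoots (vertical), coloured by class; the dashed line marks equal effects, and 2 genes lie outside the axes. The 1764 and 1442 reversed genes fill the upper left and lower right fields, and the lower right one reaches further from the origin.

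Chaperones of the endoplasmic reticulum (ER), which fold secreted and membrane proteins, gave the most uniform reversal among the gene lists. All 14 members tested had a negative interaction (24.2% of all genes did), with a median of -1.92 against -0.00 over all genes. Of them, 13 were lower in opt3-2 shoots and higher in opt3-2 roots (6.59% of all genes were). The exception was BZIP60, a transcription factor of the unfolded protein response. BZIP60 was called in roots only.

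BIP3, an ER-resident HSP70 that plants make mainly when unfolded proteins build up, had the largest interaction of the list. Its levels were 24.4, 24.3 and 26.2 CPM in wild type shoots and 2.62, 1.45 and 1.5 in opt3-2 shoots. In roots they were 70.0, 79.4 and 79.5 CPM in the wild type and 151, 174 and 189 in opt3-2. The genotypes were apart in both organs and in opposite order. The fall in shoots was 13.1-fold and the rise in roots 2.24-fold, with an interaction of -4.87 ± 0.21 (adjusted p = 8.45e-08).

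BIP2, the constitutive relative, went from 274, 267 and 250 CPM to 63.5, 62.4 and 62.3 in shoots. In roots it went from 430, 453 and 368 CPM to 641, 724 and 750. The mutant libraries were thus low in shoots and high in roots, again with no overlap, and the interaction was -2.83 ± 0.12 (adjusted p = 8.19e-08). CRT3, a plant-specific calreticulin that retains misfolded receptors, stood at 493, 460 and 500 CPM in wild type shoots and at 181, 181 and 188 in opt3-2 shoots. Root levels were 70.8, 73.2 and 74.0 CPM in the wild type and 100, 109 and 113 in opt3-2. CRT3 had an interaction of -1.97 ± 0.08 (adjusted p = 7.80e-08).

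The promoters of this list are shown because its members moved together. A window of 250 bases before the annotated gene start was read from the RefSeq TAIR10.1 genome for each gene and searched on both strands. The ER stress element, spelled CCAAT, then 10 bases of any kind, then CACG, was present in 5 of the 14 ER chaperone promoters (35.7%), in 0.7% of all 26709 promoters, in 2.02% of the promoters of genes lower in shoots and higher in roots, and in 0.695% of those of genes with the reverse pattern. Its last 4 letters can be shared with the G-box CACGTG, which 6 of the 14 promoters held (42.9%, against 6.58% of all). The motif was chosen after the list's values had been seen, and a match is a description of letters only. In the sequences of 3 of the 5 genes, printed 5′ to 3′ on the gene's strand, capitals mark the motif, which in BIP3 lies on the opposite strand in both copies.
BIP3, chr1:2931851-2932100, minus strand: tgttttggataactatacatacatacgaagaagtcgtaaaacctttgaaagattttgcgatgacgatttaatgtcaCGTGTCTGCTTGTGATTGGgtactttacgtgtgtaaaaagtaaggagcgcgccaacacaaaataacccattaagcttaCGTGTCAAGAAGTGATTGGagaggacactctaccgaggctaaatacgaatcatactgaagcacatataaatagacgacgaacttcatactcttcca
SHD, chr4:12556059-12556308, minus strand: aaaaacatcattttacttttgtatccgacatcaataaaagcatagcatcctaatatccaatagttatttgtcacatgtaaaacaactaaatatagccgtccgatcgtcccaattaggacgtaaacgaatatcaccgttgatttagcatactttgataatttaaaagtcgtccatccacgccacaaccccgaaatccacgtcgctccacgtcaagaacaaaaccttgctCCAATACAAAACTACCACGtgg
PDIL1-2, chr1:29126398-29126647, plus strand: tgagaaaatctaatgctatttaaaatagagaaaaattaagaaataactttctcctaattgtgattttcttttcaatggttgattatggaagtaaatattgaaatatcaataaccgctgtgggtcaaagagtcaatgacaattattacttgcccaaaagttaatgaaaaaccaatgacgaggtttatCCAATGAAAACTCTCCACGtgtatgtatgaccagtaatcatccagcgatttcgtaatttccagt
SHD (SHEPHERD) is the ER-resident HSP90 and PDIL1-2 a protein disulfide isomerase, an enzyme that forms and reshuffles disulfide bonds during folding.

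Genes of DNA replication and cell division reversed in the same sense. All 18 cell cycle members tested had a negative interaction (24.2% of all genes did), with a median of -1.91. Of them, 14 were lower in opt3-2 shoots and higher in opt3-2 roots (6.59% of all genes were). With only the wild type libraries of suffixes 2 to 4 the median was -1.86, and with those of 5 to 7 it was -2.05. Either set leaves a single wild type library in roots or in shoots, too few to compare the number reversed. PCNA1, the sliding clamp of DNA polymerase, stood at 7.85, 5.28 and 5.71 CPM in wild type shoots and at 1.06, 1.34 and 1.12 in opt3-2 shoots. The root libraries held 11.7, 10.8 and 12.7 CPM in the wild type and 15, 17.9 and 18.5 in opt3-2. Every mutant library lay below the wild type in shoots and above it in roots. The interaction of PCNA1 was -2.97 ± 0.23 (adjusted p = 3.35e-06).

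MCM4 and MCM5, subunits of the helicase that opens DNA at replication origins, fell 3.39-fold and 3.28-fold in opt3-2 shoots and rose 1.59-fold and 1.52-fold in roots. Their interactions were -2.43 ± 0.18 and -2.32 ± 0.18. The E2F site TTTCCCGC, the sequence bound by the factors that start S phase, was found in the same promoter window in 3 of the 18 members (16.7%) and in 0.618% of all promoters. It was searched after the values of the list were known. Roots and leaves at this age differ in how much dividing tissue they hold, and the number of dividing cells was not measured.

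**Figure D2:**
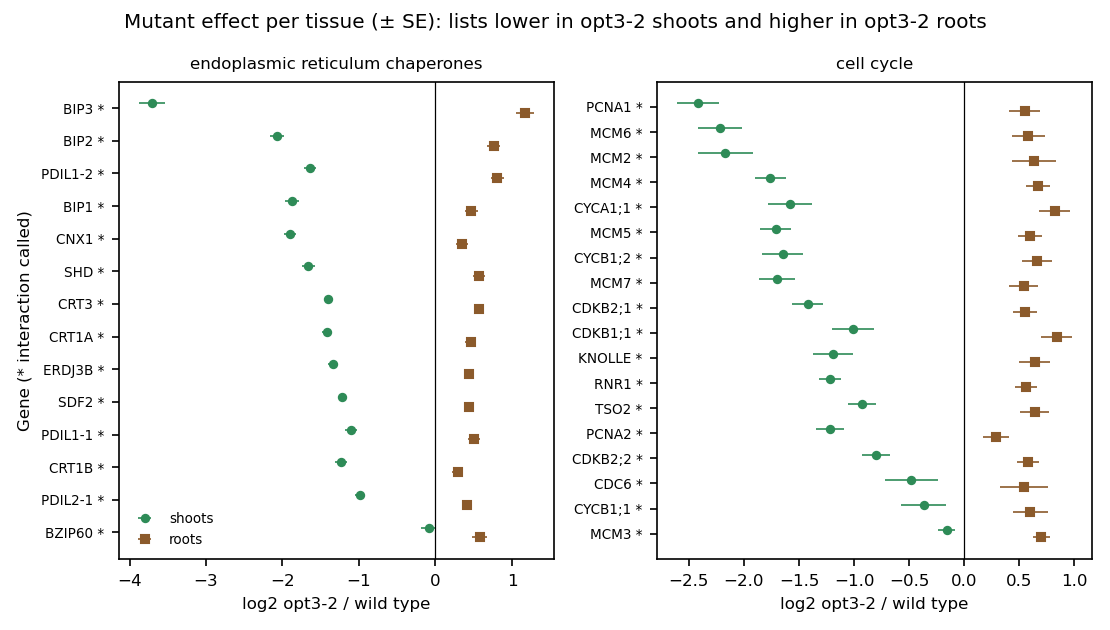
Log2 fold change of opt3-2 over wild type (± SE, n = 3 per group) in shoots (circles) and roots (squares) for each tested ER chaperone (left) and cell cycle gene (right), ordered by interaction. All shoot points lie left of 0 and all root points right of it; the asterisk marks a called interaction, which all 14 and all 18 genes have.

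Cytosolic and organellar heat shock genes differed mostly through roots. The entry HSFB1 was not among the genes tested. Of 20 members tested, 17 had a negative interaction and none a positive one (24.2% and 24% of all genes), with a median of -2.81. Of the 17, 10 were called in roots only and 6 were reversed, lower in shoots and higher in roots (6.59% of all genes). Only 12 of the 20 reached 1 CPM in a genotype of each tissue. For a member below that level in shoots, a call in roots only need not mean an unchanged shoot level. HSP17.6II, a class II small heat shock protein, showed the widest gap of the list among the reversed: it stood at 0.992, 0.886 and 0.891 CPM in wild type shoots and at 0.157, 0.167 and 0.0467 in opt3-2 shoots. In roots it rose from 4.58, 3.67 and 2.96 CPM to 156, 189 and 215. No shoot library reached 1 CPM, and the mutant shoot libraries lay near the level of a few counts. The mutant root libraries were 49.9-fold above the wild type, and the interaction was -8.50 ± 0.44 (adjusted p = 2.67e-07).

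ROF2, a peptidyl-prolyl isomerase that binds HSP90, fell 1.47-fold in shoots and rose 6.44-fold in roots (interaction -3.25 ± 0.17). MBF1C, a coactivator of the heat response, rose in both tissues, 1.18-fold in shoots and 5.55-fold in roots (interaction -2.23 ± 0.10). A gene coding for an HSP20-like chaperone, AT1G54050, was among the 5 smallest interaction p of all genes. It was at 4.42, 3.27 and 4.68 CPM in wild type shoots and at 2.43, 2.46 and 3.41 in opt3-2 shoots, where the groups overlapped, and went from 2.58, 2.56 and 2.54 to 58.7, 63.1 and 71.8 in roots. Its interaction was -5.23 ± 0.21 (adjusted p = 7.80e-08). The heat shock element core GAANNTTC was found in 5 of the 20 promoters (25%), against 9.47% of all and 10.8% of the genes lower in shoots and higher in roots. It was also in 6 of 19 promoters of the salicylic acid list (31.6%) and 3 of 12 of the clock list (25%).

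Genes of salicylic acid defence, the branch directed at biotrophic pathogens, had 11 negative interactions among 19 tested and no positive one. In all, 57.9% of the members were called, against 48.2% of all genes. The median was -1.18, and 8 members were lower in opt3-2 shoots and higher in opt3-2 roots (6.59% of all genes were). PR5, a thaumatin-like secreted protein, stood at 2431, 2169 and 2276 CPM in wild type shoots and at 103, 76.7 and 59.7 in opt3-2 shoots. In roots it stood at 50.5, 58.2 and 62.4 CPM in the wild type and at 227, 285 and 332 in opt3-2. PR5 fell 28.7-fold in shoots and rose 4.93-fold in roots, with an interaction of -7.14 ± 0.28 (adjusted p = 7.80e-08). Both separations were complete, which the rule that named PR5 among the reversals required.

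PR2, a secreted beta-1,3-glucanase, fell 14.2-fold in shoots, from 2561, 2706 and 2363 CPM to 246, 148 and 141. In roots it rose 6.67-fold, from 28.0, 33.1 and 34.8 CPM to 168, 234 and 237. The root level in the mutant therefore reached that of mutant shoots. The interaction of PR2 was -6.57 ± 0.31 (adjusted p = 1.72e-07). ICS1, which makes the salicylic acid precursor isochorismate, moved less: it fell 1.32-fold in shoots and rose 1.88-fold in roots (interaction -1.31 ± 0.10). Without opt3-2 shoot replicate 2 the reversed members of the list numbered 5.

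Jasmonate genes, which respond to wounding and necrotrophs, had 19 negative interactions among 24 tested and none positive (24.2% and 24% of all genes). Their median, -3.48, was the lowest of all lists, and it came mainly from shoots. There 14 members fell in opt3-2 (22.6% of all genes did). In opt3-2 roots 7 rose (17.5% of all genes), and 4 members were reversed, lower in shoots and higher in roots (6.59% of all genes). JAZ10, a repressor that jasmonate itself induces, stood at 49.7, 15.3 and 50.4 CPM in wild type shoots and at 1.29, 2.01 and 1.96 in opt3-2 shoots. Root levels were 1.95, 2.21 and 5.55 CPM in the wild type and 52.5, 19.9 and 15.6 in opt3-2. The groups did not overlap in either tissue, which the rule that named JAZ10 among the reversals required. In 3 of the 4 groups 1 library of 3 stood apart. The interaction of JAZ10 was -7.65 ± 0.98 (adjusted p = 0.000154).

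TAT3, a tyrosine aminotransferase induced by jasmonate, fell 13.1-fold in shoots and rose 6.39-fold in roots (interaction -6.39 ± 0.47). VSP1, a vegetative storage protein, fell 17.1-fold and rose 4.32-fold (interaction -6.21 ± 0.69). PDF1.2A, a defensin with near-identical copies whose counts cannot be assigned to 1 copy here, stood at 2426, 350 and 2170 CPM in wild type shoots and at 3.06, 4.47 and 11.2 in opt3-2 shoots. In roots it stayed between 0.552 and 1.41 CPM in all 6 libraries with overlapping genotypes, and its interaction was -7.43 ± 1.65 (adjusted p = 0.00418). HCHIB, a basic chitinase, and HEL, a hevein-like protein, were likewise called in shoots only, with falls of 24.9-fold and 11.6-fold.

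Single libraries carried weight here. Wild type shoot replicate 2 was the lowest of the wild type shoots for JAZ10, TAT3, VSP1, PDF1.2A, HCHIB and HEL. Without it 8 members were reversed, and without wild type root replicate 3 the number was 11 of 24. With only the wild type libraries whose column suffixes ran from 2 to 4, 8 members had a called interaction and 2 were reversed, and with those from 5 to 7 the counts were 20 and 14. No member had a called positive interaction in any of these settings.

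**Figure D3:**
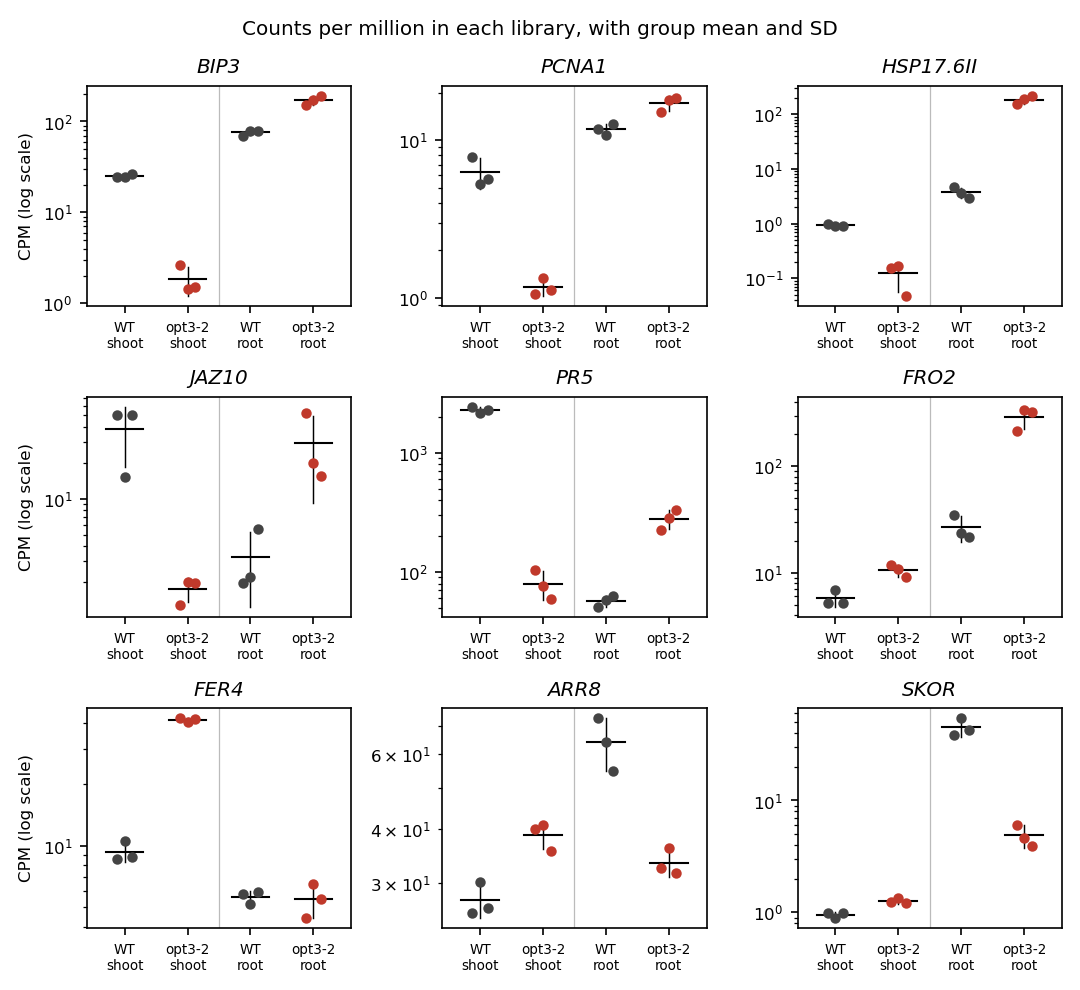
CPM of 9 genes in each of the 12 libraries (points; log scale), with the group mean (horizontal line) and SD (vertical line) of 3 libraries; grey is wild type and red opt3-2, with shoots left and roots right in each panel. BIP3, PCNA1, HSP17.6II, JAZ10 and PR5 change order between shoots and roots, ARR8 does so in the other sense, FER4 differs in shoots alone, and FRO2 and SKOR differ most in roots.

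In the list of indole glucosinolate and camalexin synthesis, camalexin being the indole phytoalexin of Arabidopsis, 4 of 11 members had a negative and 2 a positive interaction (median -0.20). In all, 54.5% of the members were called, against 48.2% of all genes. Lower in shoots and higher in roots were 3 members (6.59% of all genes were). CYP71A13, which makes indole-3-acetonitrile for camalexin, stood at 36.5, 29.4 and 35.2 CPM in wild type shoots and at 18.8, 12.4 and 12.7 in opt3-2 shoots. In roots it rose from 1.98, 1.46 and 2.11 CPM to 18.4, 26.0 and 18.4. The genotypes changed order between the tissues (interaction -4.70 ± 0.29, adjusted p = 1.01e-06). PAD3, the last enzyme of the pathway, fell 4.74-fold in shoots and rose 3.67-fold in roots (interaction -4.12 ± 0.31). CYP79B2, which feeds both products, had a smaller reversal of -1.45 ± 0.17.

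Oxidative stress genes had 11 negative and 2 positive interactions among 19 tested (median -1.43). In all, 68.4% of the members were called, against 48.2% of all genes. Beside 6.59% of all genes, 4 members were lower in shoots and higher in roots. Without wild type shoot replicate 3 or opt3-2 shoot replicate 3 that number was 2. NDB2, an alternative NAD(P)H dehydrogenase of mitochondria, fell 1.47-fold in shoots and rose 2.22-fold in roots (interaction -1.71 ± 0.12). GSTU4, a glutathione transferase, fell 1.86-fold and rose 7.27-fold (interaction -3.76 ± 0.36). UPOX, a mitochondrial protein used as an oxidative stress marker, was called in roots only, where it rose 7.63-fold.

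The iron uptake list holds genes whose products acidify the rhizosphere, reduce ferric iron and import it. It also holds transcription factors and genes of coumarin and nicotianamine synthesis. The list had 10 negative and 1 positive interaction among 16 tested (median -1.03), with 68.8% called against 48.2% of all genes. Root effects made most of these: 7 were called in roots only and 3 moved the same way in both tissues by unequal amounts. FRO2, the root ferric chelate reductase, rose in both tissues and more in roots, with effects of 0.88 and 3.45 and an interaction of -2.57 (adjusted p = 0.000134). MYB10, a transcription factor that acts in the survival of iron shortage, stood at 2.15, 2.32 and 1.88 CPM in wild type shoots and at 2.00, 2.12 and 2.76 in opt3-2 shoots. In roots it rose from 3.59, 3.13 and 3.72 CPM to 19.6, 20.8 and 23.1. The shoot libraries of both genotypes overlapped and the root libraries did not (interaction -2.49 ± 0.20, adjusted p = 3.62e-06). BGLU42, a glucosidase that helps release coumarins which mobilise iron, behaved alike, with a root rise of 3.48-fold and an interaction of -1.95 ± 0.15.

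AHA2, the main plasma membrane proton pump of roots, was the exception in the uptake list. It stood at 150, 149 and 142 CPM in wild type shoots and at 201, 216 and 218 in opt3-2 shoots. The root libraries held 1362, 1406 and 1170 CPM in the wild type and 893, 891 and 902 in opt3-2. It rose 1.44-fold in shoots and fell 1.47-fold in roots, giving an interaction of 1.08 ± 0.11 (adjusted p = 1.38e-05). The iron transporter IRT1 did not pass: its effects were 1.47 in shoots and 2.28 in roots, with an interaction of -0.81 (adjusted p = 0.0645).

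The regulators of the iron-deficiency response had 5 positive and 5 negative interactions among 22 tested (median 0.16), shares near the 24% and 24.2% of all genes. KELCH, a kelch-repeat protein gene, had one of the smallest interaction p of all genes. It stood at 50.9, 47.0 and 48.1 CPM in wild type shoots and at 40.8, 37.3 and 39.0 in opt3-2 shoots. In roots it rose from 46.1, 43.6 and 45.6 CPM to 266, 307 and 309, a 6.52-fold change against a 1.25-fold fall in shoots. The wild type had about the same CPM in both organs and the mutant did not (interaction -3.02 ± 0.09, adjusted p = 9.21e-09).

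ZIF1, a vacuolar transporter that holds nicotianamine and with it zinc in root vacuoles, fell 2.37-fold in shoots and rose 1.5-fold in roots (interaction -1.83 ± 0.17). BHLH11, a repressor of iron uptake genes, did the reverse. It went from 0.950, 1.98 and 1.02 CPM to 3.53, 3.91 and 3.55 in shoots, and from 9.70, 12.6 and 14.4 to 5.02, 4.04 and 4.66 in roots. Its groups were apart in both tissues in opposite order, and its interaction was 2.88 ± 0.33 (adjusted p = 3.32e-05).

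The iron storage list, which also holds the transporters YSL1 and YSL3, the nicotianamine synthase NAS3 and NEET, differed through shoots. Of 10 tested, 7 had a positive and none a negative interaction (median 1.77), against 24% and 24.2% of all genes. Of the 7, 6 were called in shoots only. Only 6 of the 10 reached 1 CPM in a genotype of each tissue. For a member below that level in roots, a call in shoots only need not mean an unchanged root level. The ferritin FER1 and VIT1, also in the list, were not among the genes tested. FER4, a ferritin of chloroplasts and mitochondria, rose in shoots from 8.64, 10.5 and 8.77 CPM to 42.2, 40.4 and 41.8. In roots it stood at 5.76, 5.17 and 5.90 CPM in the wild type and at 4.39, 6.45 and 5.47 in opt3-2, with overlapping libraries. The shoot rise was 4.46-fold and the interaction 2.2 ± 0.17 (adjusted p = 3.18e-06). FER3, another ferritin, matched it in pattern, with a shoot rise of 3.92-fold and an interaction of 1.95 ± 0.17. VTL2, a vacuolar iron transporter family protein, rose 4.73-fold in shoots and fell 1.61-fold in roots (interaction 2.92 ± 0.30).

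Zinc genes had 5 positive and 2 negative interactions among 16 tested (median 0.18). In all, 43.8% of the members were called, against 48.2% of all genes. Higher in opt3-2 shoots and lower in opt3-2 roots were 3 transporters (8.06% of all genes were). HMA2, an ATPase that moves zinc and cadmium out of cells towards the xylem, stood at 52.8, 68.7 and 57.6 CPM in wild type shoots and at 108, 107 and 103 in opt3-2 shoots. Root levels were 34.2, 25.1 and 24.2 CPM in the wild type and 9.49, 6.80 and 9.03 in opt3-2. The order of the genotypes changed with the organ (interaction 2.55 ± 0.21, adjusted p = 6.33e-06). HMA4, the related pump that carries most zinc and cadmium to shoots, rose 1.53-fold in shoots and fell 1.36-fold in roots (interaction 1.06 ± 0.16). ZIP6, of the ZIP transporter family, had an interaction of 1.24 ± 0.18.

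Cadmium detoxification genes had 5 negative and 3 positive interactions among 15 tested (median -0.06), beside 24.2% and 24% of all genes. The metallothionein entries MT1A and MT2B were not among the genes tested. The 5 negative calls were 3 without wild type shoot replicate 3, without wild type root replicate 2 or without opt3-2 root replicate 1. NRAMP3, which releases metals from the vacuole, fell 1.48-fold in shoots and rose 1.34-fold in roots (interaction -0.98 ± 0.12). PCR1, PLANT CADMIUM RESISTANCE 1, fell 2.53-fold in shoots and rose 2.38-fold in roots, where no library exceeded 2.18 CPM (interaction -2.59 ± 0.44). GSH1, the first enzyme of glutathione synthesis and so of phytochelatins, fell 1.36-fold in shoots while its root effect of 0.16 was not called (interaction -0.60 ± 0.11). The phytochelatin synthase PCS1 had an interaction of -0.22 that did not pass (adjusted p = 0.360).

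Sulfur genes had 5 negative and 2 positive interactions among 17 tested (median 0.11). In all, 41.2% of the members were called, against 48.2% of all genes. SULTR2;1, a vascular sulfate transporter, rose in both organs, 1.94-fold in shoots and 6.98-fold in roots. Its root libraries went from 11.6, 13.7 and 14.8 CPM to 90.3, 97.2 and 92.7 without overlap (interaction -1.85 ± 0.15, adjusted p = 4.20e-06). BGLU28, a glucosidase linked to glucosinolate breakdown under sulfur shortage, stayed at or below 0.331 CPM in shoots and in wild type roots and reached 22.0, 16.2 and 21.8 CPM in opt3-2 roots (interaction -6.73 ± 0.59). APR3, an adenosine phosphosulfate reductase, fell 1.31-fold in shoots and rose 1.63-fold in roots.

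**Figure D4:**
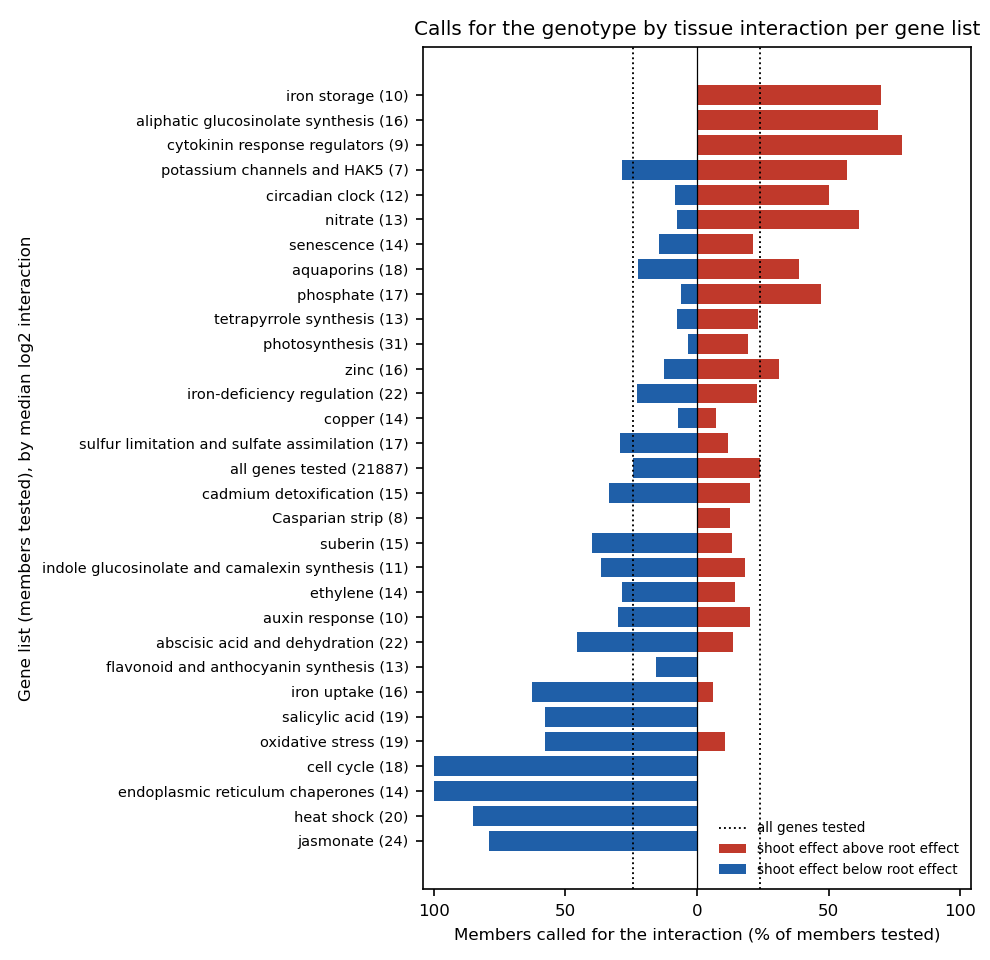
Share of tested members called for the interaction in each gene list, to the right where the shoot effect was above the root effect and to the left where it was below; numbers of members are in brackets, lists are ordered by median, and dotted lines mark the shares over all genes (24% and 24.2%). Jasmonate, heat shock, ER chaperones and the cell cycle lie furthest to the left, and iron storage, aliphatic glucosinolates and cytokinin response regulators to the right.

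Aliphatic glucosinolates, the methionine-derived defence compounds of Brassicaceae, differed in the opposite sense. Of 16 synthesis genes tested, 11 had a positive and none a negative interaction (median 1.28), since all 16 rose in opt3-2 shoots (21.3% of all genes did) while 7 rose and 2 fell in roots (17.5% and 21.5% of all genes). MAM1, which elongates the methionine side chain, stood at 107, 140 and 114 CPM in wild type shoots and at 504, 497 and 561 in opt3-2 shoots. The root libraries held 22.9, 26.1 and 21.2 CPM in the wild type and 13.3, 13.9 and 15.3 in opt3-2. The mutant was above in shoots and below in roots without overlap (interaction 2.83 ± 0.16, adjusted p = 2.67e-07).

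MYB28, the main transcription factor of the pathway, rose 1.40-fold in shoots and fell 2.60-fold in roots (interaction 1.86 ± 0.14). CYP83A1, which oxidises the aldoxime intermediates, rose 2.47-fold in shoots and had a root effect of -0.10 that was not called (interaction 1.41 ± 0.14). MAM1 and MYB28 were the reversed members of the list (8.06% of all genes were reversed in this sense). Called for the interaction were 68.8% of the members, against 48.2% of all genes.

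Type-A response regulators, which cytokinin induces and which damp its signal, had 7 positive interactions among 9 tested and no negative one (median 1.25). The called share was 77.8%, against 48.2% of all genes. ARR8 went from 25.5, 30.1 and 26.1 CPM to 40.0, 40.9 and 35.6 in shoots. In roots it went from 72.9, 63.9 and 54.9 CPM to 32.4, 36.2 and 31.6. The genotypes were apart in both organs, in opposite order (interaction 1.45 ± 0.15, adjusted p = 1.69e-05). ARR4 rose 1.32-fold in shoots and fell 1.36-fold in roots (interaction 0.84 ± 0.14). ARR9 rose 2.04-fold in shoots, and its root effect of -0.33 was not called.

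Nitrate genes had 8 positive and 1 negative interaction among 13 tested (median 0.59), with 69.2% called against 48.2% of all genes. NIA1, a nitrate reductase, stood at 173, 198 and 163 CPM in wild type shoots and at 327, 267 and 244 in opt3-2 shoots. In roots it stood at 634, 643 and 610 CPM in the wild type and at 305, 254 and 281 in opt3-2. It rose in one organ and fell in the other (interaction 1.82 ± 0.16, adjusted p = 5.75e-06). NIR1, the nitrite reductase, rose 1.90-fold in shoots and had a root effect of -0.08 that was not called. UPM1, which makes the sirohaem of nitrite reductase, rose 1.41-fold in shoots and fell 1.2-fold in roots. The negative call was NRT1.8, which retrieves nitrate from the xylem, at -3.54; it was singled out after its value was seen.

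Potassium channel genes and HAK5 had 4 positive and 2 negative interactions among 7 tested (median 1.15), with 85.7% called against 48.2% of all genes. SKOR, the stelar channel that releases potassium into the xylem, fell in roots from 38.3, 54.5 and 42.8 CPM to 6.09, 4.62 and 3.92. Its shoot libraries lay between 0.886 and 1.34 CPM, with an effect of 0.41 that was not called, and the interaction was 3.62 ± 0.31 (adjusted p = 5.64e-06). KC1, a regulatory channel subunit, was reversed, 1.8-fold up in shoots and 1.83-fold down in roots (interaction 1.72 ± 0.11). GORK, an outward channel of guard cells and root hairs, was also reversed, with an interaction of 1.15 ± 0.24.

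**Figure D5:**
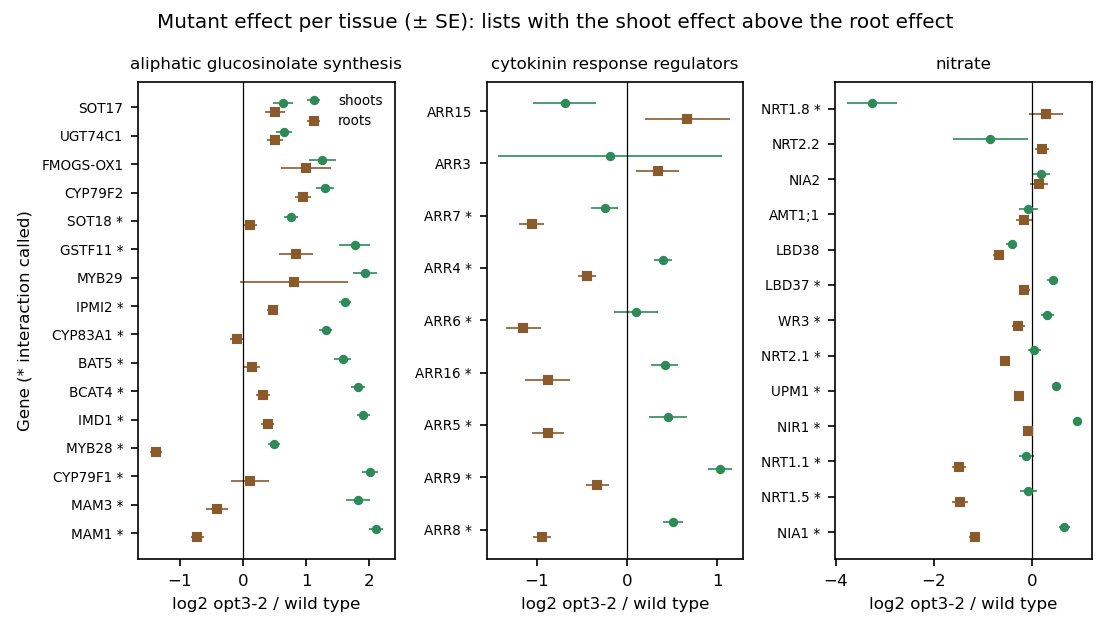
Log2 fold change of opt3-2 over wild type (± SE, n = 3 per group) in shoots (circles) and roots (squares) for each tested member of the aliphatic glucosinolate (left), cytokinin response regulator (middle) and nitrate (right) lists, with an asterisk on called interactions. Shoot points lie right of root points for all members called except NRT1.8.

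Clock genes had 6 positive and 1 negative interaction among 12 tested (median 0.61), with 58.3% called against 48.2% of all genes. Higher in opt3-2 shoots and lower in opt3-2 roots were 4 members (8.06% of all genes were). Treatment and harvest took place at the same hour of the day. PRR7, a daytime repressor of the clock, went from 193, 233 and 205 CPM to 319, 318 and 328 in shoots, and from 172, 165 and 177 to 114, 109 and 107 in roots. The genotypes were apart in both tissues in opposite order (interaction 1.25 ± 0.10, adjusted p = 3.01e-06). PRR9, its morning relative, rose 2.47-fold in shoots and fell 1.54-fold in roots, and GI, an afternoon gene, rose 1.87-fold and fell 1.21-fold. Without wild type root replicate 3 or opt3-2 root replicate 3 the number reversed in this sense was 2.

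Phosphate genes had 8 positive and 1 negative interaction among 17 tested (median 0.24), with 52.9% called against 48.2% of all genes. PHO2, a ubiquitin conjugase that limits phosphate transporters, rose 1.72-fold in shoots and fell 1.69-fold in roots (interaction 1.54 ± 0.16). PHT1;1, a root phosphate importer, fell 1.55-fold in roots and had a shoot level of 0.648 to 1.45 CPM, with an interaction of 1.28 ± 0.20. A short transcript expressed under phosphate starvation, AT5G03545, was in the reversed group with large effects: it rose from 1.16, 1.88 and 1.19 CPM to 6.5, 5.97 and 4.25 in shoots and fell from 12.6, 21.1 and 12 to 5.70, 5.73 and 6.39 in roots. AT5G03545 had an interaction of 3.34 ± 0.37 (adjusted p = 3.05e-05). Its genotypes overlapped in neither organ, which the rule that named it among the reversals required.

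Of 22 abscisic acid and dehydration genes tested, 14 rose in opt3-2 shoots (21.3% of all genes did) and 18 rose in opt3-2 roots (17.5% of all genes). For the interaction 59.1% of the members were called, against 48.2% of all genes. Interactions were negative for 10 and positive for 3 (median -0.90), 7 of the 13 called genes moved the same way in both tissues, 2 were called in shoots only and 4 in roots only. None was reversed, although 2 were without wild type root replicate 3 and 1 without wild type shoot replicate 2. KIN2, a cold and dehydration protein, rose 1.52-fold in shoots and 4.63-fold in roots (interaction -1.60 ± 0.25). ABI1, a phosphatase that restrains the hormone's signal, rose 1.86-fold in shoots and 1.27-fold in roots (interaction 0.55 ± 0.10).

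The remaining lists were mixed in direction or held few calls. Called were 22.6% of photosynthesis, 30.8% of tetrapyrrole and 35.7% of senescence members, against 48.2% of all genes. The shares were 15.4% for flavonoid, 14.3% for copper and 12.5% for Casparian strip genes. Aquaporins had 61.1% called, suberin genes 53.3%, auxin response genes 50% and ethylene genes 42.9%. Photosynthesis had 6 positive and 1 negative interaction among 31 tested (median 0.20), and 4 and 5 without wild type root replicate 3 (median -0.01), with PSAN, a photosystem I subunit, up 2.02-fold in shoots and at an uncalled root effect of -0.14. Tetrapyrrole synthesis had 3 and 1 among 13, with CHLM, a step of chlorophyll synthesis, up 1.24-fold in shoots and down 1.89-fold in roots. Aquaporins had 7 and 4 among 18: the water channel PIP2;5 fell 1.51-fold in shoots and rose 2.51-fold in roots, while PIP1;1 fell 1.74-fold in roots only. Suberin genes had 2 positive and 6 negative among 15, with FAR5, an acyl reductase that makes suberin alcohols, 17.3-fold lower in opt3-2 shoots and not called in roots. Ethylene genes had 2 and 4 among 14: ACS2 and ACS8, which make the ethylene precursor, were lower in shoots and higher in roots, and EBF2, which targets the ethylene transcription factors for degradation, was higher in shoots and lower in roots (interaction 1.01 ± 0.13).

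Senescence genes had 3 positive and 2 negative interactions among 14 tested. SAG13, an alcohol dehydrogenase family gene of senescing leaves, fell 2.33-fold in shoots and rose 10.1-fold in roots, while NYC1, which starts chlorophyll b breakdown, rose in both, 3.18-fold and 1.66-fold. Auxin response genes had 2 and 3 among 10, with IAA19 down 1.62-fold in shoots and up 1.68-fold in roots. Flavonoid synthesis had 2 negative and no positive among 13, and both called genes, CHI and FLS1, were lower in shoots and higher in roots. Only 5 of the 13 reached 1 CPM in a genotype of each tissue. The copper list had 1 and 1 among 14, 3 and 1 without wild type shoot replicate 2 and 3 and 0 without opt3-2 shoot replicate 3. In it FSD1, the iron superoxide dismutase, rose 2.23-fold in shoots and 1.22-fold in roots (interaction 0.87 ± 0.12). The Casparian strip list had 1 positive among 8, GSO1, at 0.48 ± 0.18. Only 2 of the 8 reached 1 CPM in a genotype of each tissue. The call of GSO1 was lost in 18 alternatives, DESeq2 (adjusted p = 0.0524) and limma-voom (adjusted p = 0.228) among them.

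Outside the lists, the largest negative interactions came with large falls in opt3-2 shoots. AT1G76470, of the Rossmann-fold family, stood at 7.35, 1.91 and 8.31 CPM in wild type shoots and at 0.157, 0.0558 and 0 in opt3-2 shoots. In roots it rose from 0.265, 0.282 and 0.276 CPM to 3.28, 3.52 and 3.00. It had the largest negative interaction under the naming rule, -9.73 ± 0.92 (adjusted p = 1.41e-05). AT5G19110, an aspartyl protease family gene, and AT2G43580, a chitinase family gene, followed at -9.02 ± 1.02 and -8.77 ± 1.35.

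DIN11, a dark-inducible oxygenase, stood at 149, 30.5 and 132 CPM in wild type shoots and at 0.588, 0.837 and 3.79 in opt3-2 shoots. It rose 4.26-fold in roots, and its interaction was -8.00 ± 0.96. A second oxygenase of the same family, AT2G38240, fell 15.1-fold in shoots and rose 18.3-fold in roots (interaction -8.11 ± 1.07). Further reversals of this sense with at least 4-fold effects in both organs were ST2A, a sulfotransferase, at -5.18 ± 0.43, and ABCG40, a transporter of abscisic acid, at -4.34 ± 0.45. The smallest interaction p of all genes belonged to a PAR1 family gene, AT5G52390, whose 45.0, 44.8 and 39.7 CPM in wild type shoots fell to 4.98, 5.30 and 4.21 and whose 45.0, 43.2 and 51.0 CPM in wild type roots rose to 199, 226 and 256. For AT5G52390 the wild type organs overlapped and the mutant organs were far apart (interaction -5.45 ± 0.16, adjusted p = 7.90e-09). AT1G55210, a dirigent-like gene, had an interaction of -3.61 ± 0.14 in the same sense.

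On the positive side, SLAH4, an anion channel homologue, had no count in any wild type shoot library and 4.35, 3.85 and 2.71 CPM in opt3-2 shoots. Against a floor of 3 counts over the wild type shoot group, the opt3-2 mean of 3.64 CPM was at least 102-fold higher. In roots SLAH4 fell 3.57-fold, from 7.14, 7.78 and 7.91 CPM to 1.98, 2.21 and 2.19. The wild type thus had counts of it in roots alone and the mutant in both organs.

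NRT2.5, a high-affinity nitrate transporter of starved plants, rose from 0.0826, 0.239 and 0.495 CPM to 5.13, 4.41 and 3.79 in shoots, and its root libraries overlapped (interaction 4.55 ± 0.46). WAKL4, a wall-associated kinase-like protein, rose 11.7-fold in shoots and fell 1.62-fold in roots (interaction 4.24 ± 0.25). Like SLAH4 both were at or near the detection limit in wild type shoots. AT5G54585, an uncharacterised protein, was above 5 CPM in all wild type libraries of both organs. It rose from 22.8, 37.1 and 19.9 CPM to 74.4, 71.7 and 65.3 in shoots. In roots it fell from 8.23, 6.6 and 6.25 to 0.672, 0.897 and 1.13, near 1 CPM (interaction 4.35 ± 0.36, adjusted p = 7.30e-06). WRKY71, a transcription factor of shoot branching, rose in both, 12.6-fold in shoots and 1.57-fold in roots, and its interaction of 3.00 ± 0.12 was among the 5 smallest p.

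Reversals of the positive sense were smaller. ELP, an extensin-like cell wall protein, rose 2.31-fold in shoots and fell 5.79-fold in roots, although 1 wild type root library, at 18.7 CPM, stood far above the other two at 7.50 and 3.87 (interaction 3.74 ± 0.70, adjusted p = 0.00158). EPR1, a clock-related MYB factor, rose 2.14-fold and fell 2.37-fold (interaction 2.34 ± 0.27). PP2-A13, a phloem lectin-like F-box protein, rose 2.1-fold and fell 2.52-fold (interaction 2.40 ± 0.34). AT1G52800, an oxygenase, AT2G15880, a leucine-rich repeat protein, and AT4G38340, of the RWP-RK family, had interactions of 3.98 ± 0.32, 3.16 ± 0.20 and 3.11 ± 0.19.

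Markers of other cell types were checked beside these results. The summed level of 8 leaf markers in roots was 204 to 267 CPM in the wild type and 226 to 259 in opt3-2, and that of 8 root markers in shoots was 78.8 to 90.7 and 62.5 to 68.1. Phloem markers summed to 959 to 1155 CPM in wild type shoots and 1352 to 1423 in opt3-2 shoots, and to 254 to 299 and 268 to 283 in roots, with 5 positive and no negative interaction among 8. Xylem markers summed to 134 to 162 CPM in wild type shoots and 122 to 195 in opt3-2 shoots, and to 247 to 334 and 315 to 352 in roots. Among 9 of them, 3 had a negative interaction and 6 were not called (median -0.15). The cysteine peptidases XCP1 and XCP2 fell in shoots and rose in roots (interactions -1.61 ± 0.19 and -1.0 ± 0.13). Root hair markers summed to 112 to 215 CPM in wild type roots and to 227 to 317 in opt3-2 roots. Transcripts of the mitochondrial genome summed to 294 to 299 CPM in wild type roots and 721 to 928 in opt3-2 roots. In shoots the sums were 174 to 215 and 238 to 276. A single transcript, ATMG01390, whose values are given at the end, held a large part of the root sums and of their rise. Over the 47 mitochondrial genes tested the median root effect was 0.374 on the log2 scale, with 15 called higher in opt3-2 roots. The genotypes' libraries were apart for the root hair and mitochondrial sums in roots and for the phloem, root-marker and mitochondrial sums in shoots, and they overlapped for the leaf and phloem sums in roots. Leaf markers were also apart in shoots (31669 to 38101 CPM in the wild type, 46410 to 48069 in opt3-2). So were root markers in roots (4931 to 5265 and 3438 to 3590). Guard cell sums were apart in shoots (80.9 to 85.3 and 89.2 to 96.8) and in roots, at or below 1.5 CPM. Chloroplast genome transcripts were apart in roots (44.7 to 54.3 and 55.2 to 79.1) and overlapped in shoots. Xylem sums overlapped in both tissues. The part of these marker levels in the list results was not tested.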

How the data were processed

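RNA was measured in 12 libraries of 4 groups. The authors deposited raw read counts per gene, 28775 genes in 36 columns, with no normalization per the file headers. The submitters' processing notes name TopHat2, edgeR and TAIR10. How reads were counted, with which annotation and strand setting, and what became of reads with several matches is not given in the sources used here, so near-identical copies and antisense genes are uncertain.

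The 3 technical columns of each library were summed. The test was the robust quasi-likelihood F test of edgeR 4.0.16 (R 4.3.3), two-sided, on a model of 4 group means with 8 residual degrees of freedom. It used TMM scaling and the 21887 genes that passed filterByExpr. The root of the common dispersion was 0.115. Each standard error is the log2 change divided by the root of F. CPM use TMM-scaled library sizes. A group at 0 was set to a floor of 3 counts over the group, which covers counting error only.

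A simulation used real library sizes and, for 21773 genes, the mean of each tissue over both genotypes. Every gene had the same dispersion, with a root of 0.115. Changes were planted in opt3-2 roots of 200 genes, drawn from those averaging 5 CPM or more. In the simulation 82 of 100 interactions of 2-fold and 100 of 100 of 4-fold were recovered, and 13 unchanged genes were called. Neither recovery below 5 CPM nor a share of changed genes as large as the 48.2% called in the data was simulated. Genes whose replicates vary more than this, such as JAZ10 and PDF1.2A, were not simulated with their own spread. For such genes these counts give neither the recovery nor the number of false calls.

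The comparison, the 36 lists (524 entries) and the motifs were chosen with earlier results of these data known. Genes were named by a rule: OPT3, the 8 largest interactions in each direction among genes measured in both tissues whose highest group averaged 5 CPM or more and whose libraries were apart in a tissue, the 10 reversals in each sense with the largest smaller effect of both tissues where each tissue had a group averaging 5 CPM or more and libraries were apart in both, the 3 smallest p of each list and the 5 smallest p overall. Codes without a symbol that ranked below the first 3, FRO2, IRT1, PCS1, NRT1.8 and the ER genes of the promoter window stand outside it and were chosen after their values were seen. Gene names and promoters come from RefSeq TAIR10.1, where 28009 codes matched; the 250-base windows end at the annotated gene start. Alternatives were other scalings, filters and tools, DESeq2 1.42.0 and limma 3.58.1 among them, single column sets, a replicate block and leaving out each library.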

Additional observations from a re-analysis of the deposited data

Results flagged for a closer look

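The effect of the mutation differed between shoots and roots, by the test of the difference itself, for 10542 genes in all. Of these, 1764 were higher in opt3-2 shoots and lower in opt3-2 roots, and 1442 were lower in shoots and higher in roots.

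The reversals given here are, in each sense, the 10 genes with the largest smaller effect of both tissues, where each tissue had a group averaging 5 CPM or more and the genotypes overlapped in neither. They were marked because both tissue effects and their difference passed. Lower in shoots and higher in roots were AT2G38240 with a log2 interaction of -8.11, DIN11 with -8.00, JAZ10 with -7.65, PR5 with -7.14, PR2 with -6.57, TAT3 with -6.39, VSP1 with -6.21, AT5G52390 with -5.45, ST2A with -5.18 and ABCG40 with -4.34. Higher in shoots and lower in roots were AT5G54585 with 4.35, AT1G52800 with 3.98, ELP with 3.74, AT5G03545 with 3.34, AT2G15880 with 3.16, AT4G38340 with 3.11, AT2G24580 with 2.56, PP2-A13 with 2.40, EPR1 with 2.34 and AT1G51270 with 2.14.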

How the results depend on the processing

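Genes with opposite effects outnumbered those with the same effect, among genes called in both tissues, in each of the 25 alternatives that gave both counts. Tested against a log2 difference of 1, which by construction asks for larger effects, 374 genes had the shoot effect above the root effect and 919 below it, and 267 and 631 were reversed (higher in shoots and lower in roots, and the converse). Genes higher in opt3-2 shoots and lower in opt3-2 roots numbered 1048 with technical replicate 1 only, 774 with the wild type libraries of suffixes 2 to 4 and 1100 with those of 5 to 7, and the converse pattern 573 with suffixes 2 to 4; these fits use fewer reads or fewer libraries. Leaving out each library in turn gave 4684 to 5312 genes with the shoot effect above the root effect, 4723 to 5358 with it below, 1287 to 1933 higher in shoots and lower in roots, and 1017 to 1686 in the converse pattern. Library sizes alone moved the median interaction to -0.08 and the share of positive calls from 49.8% to 42.2%, with 1176 genes higher in shoots and lower in roots; DESeq2 gave 51%. Across RLE factors, library sizes alone, TMM within each tissue and DESeq2, no list changed the side on which most of its called members lay, except that the senescence, tetrapyrrole, copper, Casparian strip and iron-deficiency regulation lists moved to or from equal counts.

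Same-numbered replicates of different groups did not deviate together (correlations -0.31 to 0.13), so the numbers were not taken as pairs. With a replicate block over the 4 groups 5068 genes had the shoot effect above and 5121 below it, with 1609 and 1334 reversed, and with a block by plant pool the counts were 4841 and 5021. Of the 133 named genes, ATCG00940 changed sign: its interaction was -1.31 and became 0.12 (adjusted p = 0.945) with technical replicate 1 only, and the cause was not tested. GSO1 lost its call in 18 settings, COPT1 in 12, ATCG01130 in 10 and ATCG00940 in 10. In both tissues counts below about 1 CPM limit what can be called: 910 called genes did not reach that level in one of the tissues.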

Other observations

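Genes grouped by the product text of the reference, a grouping added after the data were seen, gave 176 families of at least 15 tested genes. The families with the largest shares lower in opt3-2 shoots and higher in opt3-2 roots were a group of ribosomal proteins with 5 of 18 genes (27.8%; another group, whose product text differs only in a capital letter, had 1 of 15, 6.67%), an AAA-type ATPase family with 5 of 20 (25%), a phosphoglycerate mutase family with 4 of 16 (25%) and a beta glucosidase family with 6 of 24 (25%), against 6.59% of all genes. In the opposite sense, 6 of 15 response regulators (40%), 12 of 35 RNI-like proteins (34.3%) and 7 of 26 AGAMOUS-like factors (26.9%) were higher in shoots and lower in roots, against 8.06% of all genes. No test was made on these shares, which are the highest of 176.

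Of 78 tested chloroplast genes, 3 had a positive and 1 a negative interaction, and of 47 tested mitochondrial genes, 6 and 5. That is 5.13% and 23.4% called, against 48.2% of all genes. Only 5 of the chloroplast and 23 of the mitochondrial genes reached 1 CPM in both tissues. A further 55 and 99 genes were not tested. The few calls therefore do not show equal effects in both organs. The mitochondrial transcript ATMG01390 rose in roots from 140, 121 and 120 CPM to 462, 399 and 521, and in shoots its libraries overlapped (interaction -1.39 ± 0.21, adjusted p = 0.000232).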
